A study of Mus musculus with 34 samples.

Results

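Pax6, Sox1, Sox11, Neurog2, Tubb3, Dcx, Fabp7, Map2 and Ncam1, 9 genes that mark neural progenitors and young neurons, were followed in mouse embryonic stem cells (mESCs) grown without LIF, with or without Royalactin. They were found by exact match of the gene symbol among the 23366 symbols of the RNA-seq table, where each has 1 row. The cells were J1 mESCs in serum medium on gelatin-coated plates, and LIF, the cytokine that keeps mESCs undifferentiated in serum, was withheld from all of them. In the serum/-LIF group (n = 2 libraries) nothing was added in its place, and in the serum/-LIF + Royalactin group (n = 2 libraries) the medium held 0.5 mg/ml of purified Royalactin, the main protein of royal jelly. The labels give passage 40 for every library, whereas the study describes a shorter culture in these media, and they do not say how long LIF was absent at harvest. J1 is a single cell line, and the labels speak of cultures grown in parallel without naming which culture gave which library, so every p-value measures the spread between these libraries, which may be technical. The comparison asks whether cells without LIF carried more or less RNA of the neural lineage when Royalactin was present.

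When mESCs leave pluripotency they can enter the neural lineage without an added inducer, and Sox1 is among the first genes that mark the neuroepithelial progenitors formed. Pax6 then marks radial glia, proneural factors such as Neurog2 commit single progenitors to a neuronal fate, and SoxC factors such as Sox11 act in the newly committed cells. Tubb3, Dcx and Map2 encode microtubule proteins of neurons, Ncam1 encodes a surface adhesion molecule, and Fabp7 encodes a fatty acid binding protein of radial glia.

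The libraries held 14737796 to 17597818 reads on genes. The ribosomal transcript Rn45s took 46.6% and 21.6% of them in serum/-LIF replicates 1 and 2, and 38.4% and 9.08% in serum/-LIF + Royalactin replicates 1 and 2, which leaves 7878527 to 15999458 reads for all other genes. Values below are normalized counts (reads divided by a size factor for each library). A floor of 3 reads was set for a count of 0, which corresponds to 2.07 to 4.01 normalized counts per library. That floor covers counting error only, and the exact 95% Poisson limit for a count of 0 is higher, at 3.69 reads. Over the 12993 genes that passed the filter on low values (a mean of 10 or more), serum/-LIF replicates differed by a median of 0.57 on the log2 scale, Royalactin replicates by 0.39 and the group means by 0.40. All 8 embryonic stem cell markers checked passed that filter, with summed levels of 19145 and 23400 in serum/-LIF and 25011 and 27693 with Royalactin. Of the 8, 4 (Sox2, Zfp42, Esrrb and Klf4) rose with Royalactin (limma adjusted p of 0.0368, 0.00371, 0.00273 and 0.00787). Over all tested genes, limma called 0.331% higher. edgeR on the recovered read counts called 3 of the 8 higher, and limma without the variance trend called 0 genes of the table. Short pieces (tiles) of exon also matched elsewhere in the genome for 54.8% of Zfp42 and 25.5% of Klf4 tiles. For Esrrb and Sox2 these shares were 0.5% and 0%. Nanog was higher in both Royalactin libraries without passing (limma adjusted p = 0.219), and Pou5f1 and Dppa3 overlapped. Tdgf1, the highest of the 8, went the other way, from 10914 and 14553 to 8696 and 9728 (limma adjusted p = 0.730). With 2 libraries against 2, an exact permutation test of one gene cannot give a p below 0.333, so the tests of single genes come from the fit across all genes.

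Of the genes whose libraries did not overlap between the groups, Pax6, Tubb3, Sox11 and Dcx have a promoter window in RefSeq (GRCm38.p6), and the 250 bases before the annotated start are shown 5′ to 3′ on the gene's strand, with each CG dinucleotide in capitals. Ncam1, also without overlap, was not found in that table. The windows lie at chr2:105668646-105668895 on the plus strand for the first of the Pax6 starts, chr8:123411303-123411552 on the plus strand for Tubb3, chr12:27342719-27342968 on the minus strand for Sox11 and chrX:143933220-143933469 on the minus strand for the first Dcx start.
Pax6: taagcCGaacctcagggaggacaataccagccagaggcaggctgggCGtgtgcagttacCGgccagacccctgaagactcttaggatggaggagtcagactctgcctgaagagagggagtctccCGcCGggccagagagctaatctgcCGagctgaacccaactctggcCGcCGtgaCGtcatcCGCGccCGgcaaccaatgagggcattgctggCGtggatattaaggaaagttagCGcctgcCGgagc
Tubb3: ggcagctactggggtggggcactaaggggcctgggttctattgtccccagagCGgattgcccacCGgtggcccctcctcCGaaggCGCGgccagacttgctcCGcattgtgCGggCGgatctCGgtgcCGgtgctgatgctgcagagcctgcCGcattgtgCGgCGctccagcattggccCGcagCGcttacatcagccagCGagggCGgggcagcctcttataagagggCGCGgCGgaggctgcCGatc
Sox11: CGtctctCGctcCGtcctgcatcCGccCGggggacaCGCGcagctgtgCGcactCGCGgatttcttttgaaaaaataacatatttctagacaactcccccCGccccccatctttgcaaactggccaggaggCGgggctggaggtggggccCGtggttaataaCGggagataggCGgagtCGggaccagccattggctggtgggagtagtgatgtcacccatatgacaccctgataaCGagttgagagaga
Dcx: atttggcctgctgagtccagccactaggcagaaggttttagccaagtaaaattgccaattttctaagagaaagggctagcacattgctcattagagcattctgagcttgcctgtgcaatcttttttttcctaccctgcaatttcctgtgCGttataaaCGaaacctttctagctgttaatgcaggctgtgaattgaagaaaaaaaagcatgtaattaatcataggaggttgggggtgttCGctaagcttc
The Tubb3 window holds 21 CG dinucleotides, the Sox11 window 17 and the Pax6 window 15, against a median of 6 over 32851 RefSeq windows of the same length. The Dcx window holds 3, and 71.0% of all windows hold at least as many. The widest spread among the members is from this Dcx window to that of Map2, with 34 CG dinucleotides, a number reached by 3.53% of windows. TATAAA, read on both strands, is in the Dcx window and in a second Dcx window that overlaps it, the only 2 of the 10 member windows that hold it, against 12.4% of all windows. CANNTG, the short E-box that proneural factors can bind, is in 3 of the 10 and in 66.2% of all windows. These are matches of letters, not sites shown to be used.

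In serum/-LIF + Royalactin, none of the 9 genes rose or fell past an adjusted p of 0.05. Of the 8 that passed the filter on low values, both Royalactin libraries lay above both serum/-LIF libraries for 3 (Pax6, Tubb3 and Ncam1), below them for 2 (Sox11 and Dcx) and among them for 3 (Sox1, Map2 and Fabp7). Neurog2 had no read in any library. Over all 12993 tested genes, the Royalactin libraries lay above for 19.7% and below for 18.9%. limma called 0 of the 8 members at an adjusted p under 0.05, against 0.493% of all tested genes (0.331% higher and 0.162% lower), and 0 at an unadjusted p under 0.05, against 9.34% of all tested genes. Under the limits of an unadjusted p under 0.05 and at least 2-fold, 0 members were called, against 3.52% of all tested genes higher and 3.61% lower. On the recovered read counts, edgeR and DESeq2 each called 0 members after adjustment, against 0.454% and 1.92% of all tested genes. Each gave 1 of the 8, Dcx, an unadjusted p under 0.05, against 9.09% of all tested genes with edgeR and 9.62% with DESeq2. Dcx passed the filter through its serum/-LIF reads alone, so that p cannot serve as support. The median log2 fold change of the 8 was 0.42, with 5 higher and 3 lower in mean, against -0.01 over all tested genes, of which 49.4% were higher. In bulk RNA, fewer cells of a type and less RNA per cell cannot be told apart.

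**Figure D1:**
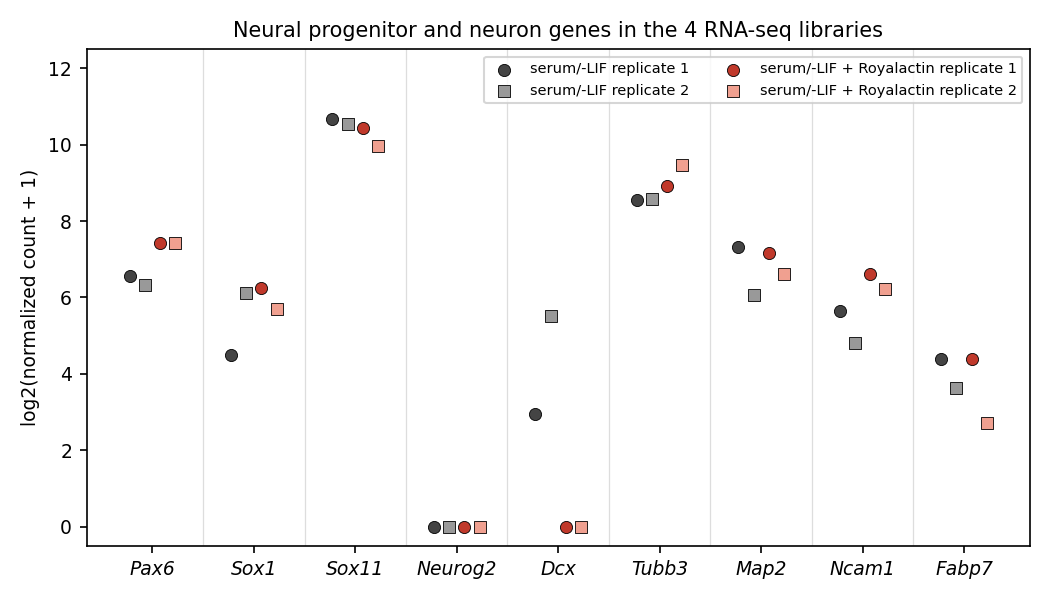
Each point is 1 RNA-seq library, with log2(normalized count + 1) on the vertical axis and the 9 genes on the horizontal axis. Sox11 stands highest in every library, Pax6, Tubb3 and Ncam1 have both Royalactin libraries above both serum/-LIF libraries, Dcx reads occur in the serum/-LIF libraries alone, and Neurog2 lies at 0 throughout.

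Among the transcription factors, Pax6 had the smallest limma p of the 8 tested members. Pax6, a paired-box factor of radial glia and of the eye field, lies at chr2:105509053-105543317 on the plus strand (mm9). It measured 93.6 and 79.7 in serum/-LIF replicates 1 and 2 (70 and 77 reads), and 172 and 171 in serum/-LIF + Royalactin replicates 1 and 2 (171 and 249 reads). Both Royalactin libraries were close to each other and above both serum/-LIF libraries. The means were 86.7 ± 9.84 and 172 ± 0.43 (SD, n = 2 each), a log2 fold change of 0.98 with a standard error of 0.50 and a 95% interval from -0.09 to 2.06. The difference did not pass the adjustment over all genes (limma adjusted p = 0.593). Exons of Elp4, an Elongator subunit gene on the opposite strand, overlap 27.9% of the Pax6 exon length, and the strand setting of the counting is not given in the sources used here. Elp4 itself measured 266 and 200 in serum/-LIF and 301 and 207 with Royalactin, so its groups overlapped, with a log2 fold change of 0.11 and an adjusted p of 0.957 (limma).

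Over the 4 libraries, the genes whose pattern lay nearest to that of Pax6 were Nr2c2ap, Cyb5r3 and Trip12, at Euclidean distances of 0.0303, 0.0790 and 0.107 between mean-centred log2 values. With only 4 points this likeness is loose, since 55 tested genes lay within a distance of 0.25.

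Sox1, the SoxB1 factor of the early neuroepithelium, measured 21.4 and 68.3 in serum/-LIF (16 and 66 reads) and 75.4 and 50.9 with Royalactin (75 and 74 reads). The serum/-LIF libraries stood on either side of the second Royalactin library, so the groups overlapped. The log2 fold change was 0.68, with a standard error of 0.79 and an interval from -1.02 to 2.38 (limma adjusted p = 0.843), and without serum/-LIF replicate 1 it was -0.14. The mm9 annotation used here has no gene model of Sox1 itself, so no exon length or mm9 position is given. The noncoding gene Gm5607, whose span holds Sox1 in RefSeq, has a row of its own at 50.8 and 64.2 in serum/-LIF and 16.1 and 17.9 with Royalactin. Both Royalactin libraries were lower for Gm5607, with a log2 fold change of -1.69 that did not pass the test (limma adjusted p = 0.604).

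Sox11, the SoxC factor of newly committed neurons that is also expressed in many other embryonic tissues, is a single block of 2013 bases at chr12:28025562-28027574 on the minus strand (mm9). It measured 1621 and 1485 in serum/-LIF (1212 and 1435 reads) and 1397 and 1006 with Royalactin (1389 and 1461 reads). Both Royalactin libraries were below both serum/-LIF libraries, and the gap between the groups was narrower than the gap between the serum/-LIF libraries. The means were 1553 ± 95.8 and 1201 ± 277 (SD, n = 2 each). The log2 fold change of -0.39 had a standard error of 0.30 and an interval from -1.04 to 0.26 (limma adjusted p = 0.748).

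Neurog2, the proneural factor of the list (chr3:127336054-127338549, plus strand, mm9), had 0 reads in all 4 libraries. The floor of 3 reads per library corresponds to at most 1.80 normalized counts per kilobase of exon, and the exact Poisson limit of 3.69 reads to more. No difference was detectable at this depth.

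The SoxB1 and SoxC relatives did not move as one group, with 1 of the 6 called higher and 0 lower (limma), against 0.331% and 0.162% of all tested genes. Sox2, which marks both pluripotent cells and neural progenitors, measured 1415 and 1300 in serum/-LIF and 4381 and 3476 with Royalactin. Both Royalactin libraries were higher, and Sox2 rose by a log2 fold change of 1.52 (SE 0.29, limma adjusted p = 0.0368). The call was lost with edgeR (adjusted p = 0.0528), with a pseudocount of 0.1 and with no filter on low values, and the adjusted p spanned 3.30e-12 to 1.00 over all alternatives. Sox3, the third SoxB1 factor, measured 42.8 and 72.5 in serum/-LIF and 38.2 and 13.1 with Royalactin, both lower, with an adjusted p of 0.717 (limma). Sox4 and Sox12, the SoxC partners of Sox11, overlapped between the groups, with log2 fold changes of -0.04 and -0.27.

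Among the microtubule genes of neurons, Tubb3 was higher and Dcx lower in both Royalactin libraries, and Map2 overlapped. Tubb3, the beta-tubulin used as a marker of young neurons, lies at chr8:125935324-125945915 on the plus strand (mm9). It measured 377 and 379 in serum/-LIF (282 and 366 reads) and 484 and 708 with Royalactin (481 and 1029 reads). The serum/-LIF libraries lay close together, and the Royalactin libraries lay above them and far from each other. The means were 378 ± 1.2 and 596 ± 159 (SD, n = 2 each), a log2 fold change of 0.63 with a standard error of 0.35 and an interval from -0.13 to 1.39 (limma adjusted p = 0.634). Of 65 exon tiles of Tubb3, each 75 bases long, 17 (26.2%) also matched elsewhere in the genome, so some of its reads could belong to a copy or be lost.

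The other beta-tubulins gave no call. Of the 6 tested besides Tubb3, 1 had both Royalactin libraries above (Tubb2b), 1 below (Tubb6) and 4 overlapped. Over all tested genes, 19.7% lay above and 18.9% below. Of the 6, 0 passed an adjusted p of 0.05 (limma). Tubb2b measured 687 and 649 in serum/-LIF and 819 and 1170 with Royalactin, a log2 fold change of 0.55 (adjusted p = 0.651), but 74.6% of its tiles matched elsewhere. Tubb6, a beta-tubulin found mostly outside neurons, measured 968 and 1243 in serum/-LIF and 593 and 602 with Royalactin, a log2 fold change of -0.88 (adjusted p = 0.367). The broadly expressed Tubb5 had the highest normalized counts of the family, between 17121 and 20504, and its groups overlapped.

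Dcx, doublecortin, a microtubule protein of migrating young neurons, lies at chrX:140290385-140367854 on the minus strand (mm9). It measured 6.69 and 44.5 in serum/-LIF replicates 1 and 2, from 5 and 43 reads, and 0 in both Royalactin libraries. All of its reads were in serum/-LIF, and the 2 libraries of that group differed 6.66-fold. The exact 95% Poisson intervals were 2.17 to 15.6 and 32.2 to 60.0 for the serum/-LIF libraries and reached up to 3.71 and 2.54 for the Royalactin libraries. Against a floor of 3 reads per library, the serum/-LIF mean of 25.6 ± 26.7 (SD, n = 2) was 10.1-fold higher. Serum/-LIF replicate 1 alone was 2.63-fold and replicate 2 alone 17.5-fold above that floor. These folds are not lower bounds, since the Poisson limits of the Royalactin libraries lie above the floor. At the level of serum/-LIF replicate 1, the Royalactin libraries would have held 6.65 and 9.71 reads. Dcx passed the filter on low values through the serum/-LIF libraries alone, so no p-value for it can serve as support. limma gave an adjusted p of 0.645. edgeR gave a p of 0.0103 (adjusted p = 0.307) and DESeq2 an adjusted p of 0.0823, the lowest of a range that reached 1.00 over all alternatives.

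The relatives of Dcx went in opposite directions in mean. Dclk1, a doublecortin-like kinase of neurons, measured 60.2 and 107 in serum/-LIF and 11.1 and 27.5 with Royalactin, a log2 fold change of -2.13 (adjusted p = 0.431, limma). Dclk2, a kinase of the same family, measured 148 and 38.3 in serum/-LIF and 199 and 189 with Royalactin, a log2 fold change of 1.35 (adjusted p = 0.532, limma). Neither passed the adjustment. The groups did not overlap for either gene, which was common, with 19.7% of all tested genes above and 18.9% below.

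Map2, the microtubule protein of dendrites (chr1:66221847-66489157, plus strand, mm9), measured 158 and 66.2 in serum/-LIF (118 and 64 reads) and 143 and 97.1 with Royalactin (142 and 141 reads). The Royalactin libraries both lay between the serum/-LIF libraries. The means were 112 ± 64.7 and 120 ± 32.4 (SD, n = 2 each), with a log2 fold change of 0.20, a standard error of 0.58 and an interval from -1.05 to 1.45 (limma adjusted p = 0.946). Of the 8 tested genes of the MAP family, 0 were called (limma), against 0.493% of all tested genes. Past the unadjusted limits, 1 was higher (Map1a) and 0 lower, against 3.52% and 3.61% of all tested genes. Both Royalactin libraries lay above for 2 (Map7 and Mapt) and below for 1 (Map6), against 19.7% and 18.9% of all tested genes. Mapt, which encodes tau, the axonal partner of Map2, measured 14.7 and 48.6 in serum/-LIF and 78.5 and 59.2 with Royalactin, a log2 fold change of 1.31 (adjusted p = 0.680, limma).

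Ncam1, the neural cell adhesion molecule, lies at chr9:49310257-49607027 on the minus strand (mm9) and had the highest fold change among the members. It measured 49.5 and 26.9 in serum/-LIF (37 and 26 reads) and 97.6 and 73.7 with Royalactin (97 and 107 reads). Both Royalactin libraries were higher. The means were 38.2 ± 16.0 and 85.6 ± 16.9 (SD, n = 2 each), a log2 fold change of 1.19 with a standard error of 0.70 and an interval from -0.32 to 2.70 (limma adjusted p = 0.656). The interval excludes neither no change nor a change of more than 4-fold.

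Fabp7, the brain-type fatty acid binding protein (chr10:57504687-57508256, plus strand, mm9), measured 20.1 and 11.4 in serum/-LIF (15 and 11 reads) and 20.1 and 5.51 with Royalactin (20 and 8 reads). The groups overlapped, and each group held 1 library near 20.1. The log2 fold change of -0.46 had the widest interval of the members with reads in both groups, from -3.39 to 2.47 (limma adjusted p = 0.948), and its direction reversed without serum/-LIF + Royalactin replicate 2. Of the 8 family genes, 3 passed the filter and 4 had no read in any library. Fabp5, the epidermal-type relative, measured 567 and 1013 in serum/-LIF and 206 and 362 with Royalactin, both lower, with a log2 fold change of -1.47 that did not pass the adjustment (limma adjusted p = 0.182). It passed with DESeq2 (adjusted p = 0.0452) and with the GC and length correction (0.0388), in a range of 1.18e-05 to 1.00 over all alternatives.

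**Figure D2:**
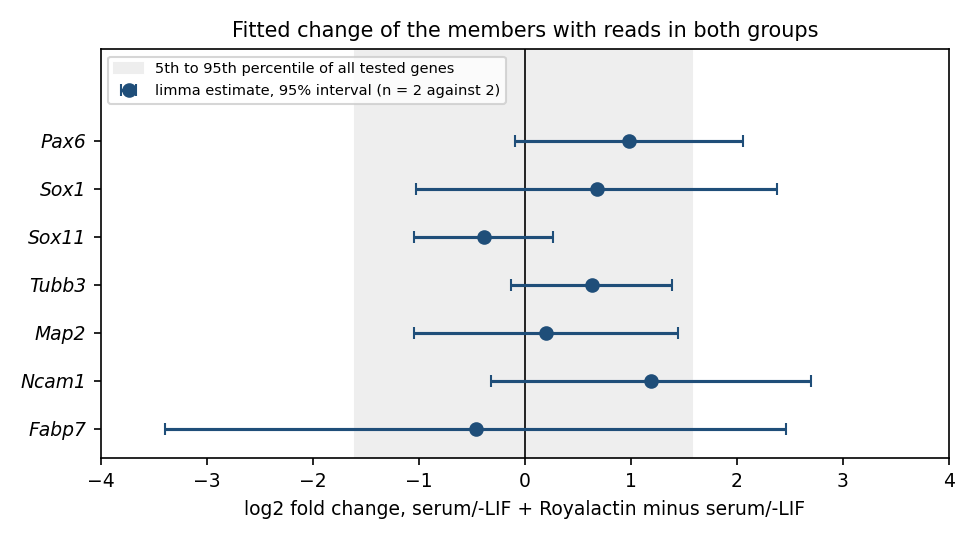
Points give the limma log2 fold change (serum/-LIF + Royalactin minus serum/-LIF, horizontal axis) of the 7 members with reads in both groups, bars the 95% interval from 2 libraries against 2, and the grey band the 5th to 95th percentile of all tested genes, from -1.60 to 1.58. Every interval includes 0, and every point lies within the band.

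**Figure D3:**
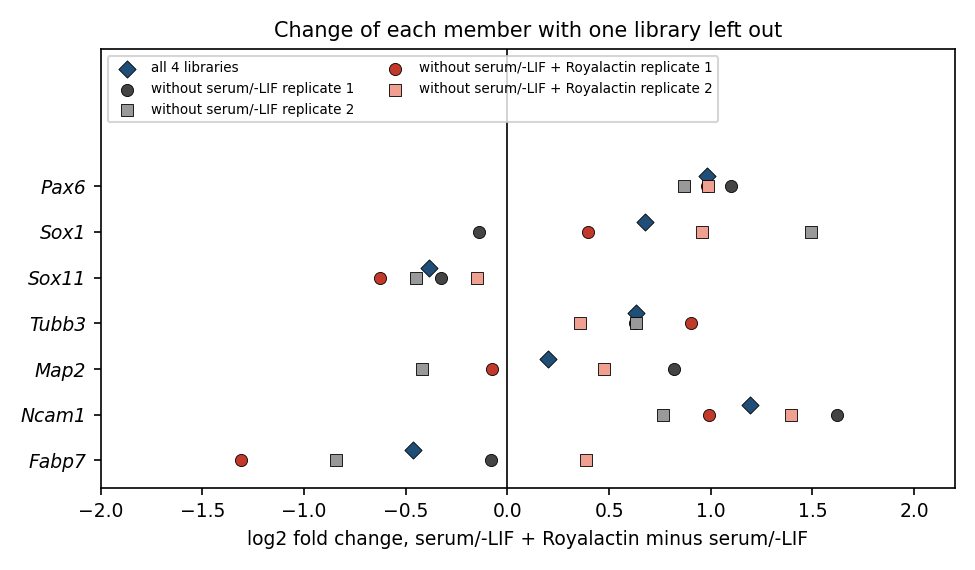
The log2 fold change (horizontal axis) of the same 7 members is drawn with all 4 libraries (diamonds) and after removal of each single library. Pax6, Tubb3, Ncam1 and Sox11 stay on one side of 0, whereas Sox1 runs from -0.14 to 1.49, Map2 from -0.42 to 0.82 and Fabp7 from -1.31 to 0.39.

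As a level per kilobase of exon, Sox11 was the most abundant member, with a mean of 684 normalized counts per kilobase (range over the 4 libraries 500 to 805), above 92.3% of the tested genes. Tubb3 followed at 261 (202 to 379), above 80.0% of them. The other members with a length were far below the median tested gene, at 68.0, and Sox1 has no level on this scale. Fabp7 had a level of 11.4 per kilobase (4.41 to 16.1), Map2 7.05 (4.03 to 9.59), Pax6 6.51 (4.02 to 8.67), Ncam1 6.12 (2.66 to 9.64) and Dcx 1.01 (0 to 3.52). The ranges of Sox11, Tubb3 and Fabp7 did not overlap each other, while from Fabp7 down to Dcx each gene's range overlapped that of the next. Lengths are those of all annotated exons joined, so a gene that uses a short isoform has a higher level than given. The annotation of the counting is not given. A gene counted over more bases than its model here, such as the 2013 bases of Sox11, would have a lower level than given. The order of Sox11 and Tubb3 on this scale rests on these lengths.

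The wider neural lists were mixed. Over all tested genes, limma called 0.493%, while 3.52% were higher and 3.61% lower past the unadjusted limits. Of 32 neural progenitor genes, mostly transcription factors, 17 were tested, with a median log2 fold change of -0.12. Past the unadjusted limits, 2 were higher and 2 lower. At an adjusted p under 0.05 (limma), 1 rose (Sox2) and 1 fell. The gene that fell, Nes, encodes the intermediate filament nestin and is no transcription factor, and is also expressed outside the neural lineage. Nes measured 1490 and 1099 in serum/-LIF and 334 and 326 with Royalactin, a log2 fold change of -1.95 (SE 0.33, limma adjusted p = 0.0166), with both Royalactin libraries far below. Gbx2, a homeobox gene of the midbrain-hindbrain boundary that is also active in mESCs, had the highest log2 fold change of the list at 2.18, from 32.1 and 52.8 to 234 and 155, but did not pass (limma adjusted p = 0.172). It passed with DESeq2 (adjusted p = 0.0423, in a range of 0.00849 to 1.00 over all alternatives).

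Among 30 proneural and neuronal commitment genes, 14 were tested and 0 were called in either direction (limma), with 1 higher and 0 lower at an unadjusted p under 0.05 and 2-fold, and a median of -0.08. The 1 higher was Sox21, a SoxB2 factor, at 1.34 and 17.6 in serum/-LIF and 43.3 and 57.8 with Royalactin (limma adjusted p = 0.492). Lhx3, a LIM homeobox gene of motor neurons and the pituitary, was read at 45.5 in serum/-LIF replicate 2 and at 0, 0 and 1.38 in the other libraries.

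All 24 neuronal cytoskeleton genes were tested, with a median log2 fold change of 0.06. Past the unadjusted limits, 3 were higher and 4 lower. Both Royalactin libraries lay above for 7 and below for 8, against 19.7% and 18.9% of all tested genes. At an adjusted p under 0.05 (limma), 0 rose and 1 fell. The gene that fell was Nefl, the light neurofilament subunit, at 1693 and 1960 in serum/-LIF and 521 and 727 with Royalactin (log2 fold change -1.56, SE 0.31, limma adjusted p = 0.0450). Its call was lost with edgeR (adjusted p = 0.0560) and under upper-quartile scaling (0.0644), within a range of 2.84e-10 to 1.00 over all alternatives, and exons of Nefm on the opposite strand overlap 32.8% of its exon length. Nefm, the medium neurofilament subunit, measured 310 and 275 in serum/-LIF and 99.6 and 21.3 with Royalactin, both lower, without passing the adjustment (limma adjusted p = 0.136). It passed with DESeq2 (adjusted p = 0.0419) and with the GC and length correction (0.0312), in a range of 4.66e-06 to 1.00 over all alternatives. Stmn4, a stathmin of neurons, had 29.4 and 30.0 in serum/-LIF and 0 in both Royalactin libraries. It passed the filter on low values through the serum/-LIF libraries alone, so no call on it can serve as support. Its serum/-LIF mean was 11.7-fold above the floor of 3 reads per library, and limma did not call Stmn4 (adjusted p = 0.475). DESeq2 called it (adjusted p = 0.0341, in a range up to 1.00 over all alternatives). Map1a, a microtubule protein of mature neurons, had the highest log2 fold change over the 4 libraries, 1.74, from 177 and 29.0 to 339 and 173, with groups that overlapped (limma adjusted p = 0.454). That value was 0.46 without serum/-LIF replicate 2 and 3.02 without serum/-LIF replicate 1.

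Neural adhesion genes (12 of 16 tested) and synaptic genes (10 of 20 tested) gave 0 calls in either direction (limma), with 3 and 1 genes, respectively, past the unadjusted limits and medians of -0.64 and -0.47. Cntn1, a contactin of axons, had 21.4 and 18.6 in serum/-LIF, a mean 7.88-fold above the floor, and 0 with Royalactin (limma adjusted p = 0.610). Syt1, the calcium sensor of synaptic vesicles, had 44.1 and 33.1 in serum/-LIF, a mean 15.2-fold above the floor, and 0 with Royalactin (limma adjusted p = 0.389). DESeq2 called it (adjusted p = 0.0113, in a range up to 1.00 over all alternatives). In the opposite direction, Tenm4, a teneurin of axon guidance, measured 201 and 39.3 in serum/-LIF and 496 and 279 with Royalactin (limma adjusted p = 0.263). Dcx, Stmn4, Cntn1 and Syt1 passed the filter on low values through the serum/-LIF libraries alone. A call on these genes therefore cannot serve as support. The same holds for Dcn, a fibroblast marker given below, and Lhx3 passed almost wholly through serum/-LIF replicate 2. Over all tested genes, 39 (0.3%) had no read in either Royalactin library and 36 (0.277%) none in either serum/-LIF library.

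Of 16 radial glia and glial genes, 10 were tested, of which 0 rose and 1 fell, with a median of -0.12. Past the unadjusted limits, 0 were higher and 1 lower. Prom1, a membrane protein of neural and other stem cells and of epithelia, measured 896 and 1087 in serum/-LIF and 210 and 258 with Royalactin, a log2 fold change of -2.08 (SE 0.34, limma adjusted p = 0.0151), with both Royalactin libraries far below. Ptprz1, a receptor phosphatase of radial glia, measured 17.4 and 8.28 in serum/-LIF and 22.1 and 35.8 with Royalactin (limma adjusted p = 0.809). The calls of Nes and Prom1 were lost when limma was run without the variance trend (adjusted p of 0.287 and 0.25) and with any 1 library left out, where no gene of the table passed.

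REST, a repressor of neuronal genes outside neurons, and its cofactors gave 0 calls among 13 tested genes (limma), with 1 higher and 1 lower past the unadjusted limits and a median of 0.07. Rcor2, a corepressor that works with REST, measured 599 and 203 in serum/-LIF and 934 and 915 with Royalactin, a log2 fold change of 1.40 (adjusted p = 0.263, limma). It passed with the GC and length correction (adjusted p = 0.0388, in a range of 1.32e-05 to 1.00 over all alternatives), and the log2 fold change was 0.63 without serum/-LIF replicate 2. Ctdsp1, a phosphatase that acts with REST, measured 358 and 214 in serum/-LIF and 91.5 and 179 with Royalactin, both lower (limma adjusted p = 0.506).

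**Figure D4:**
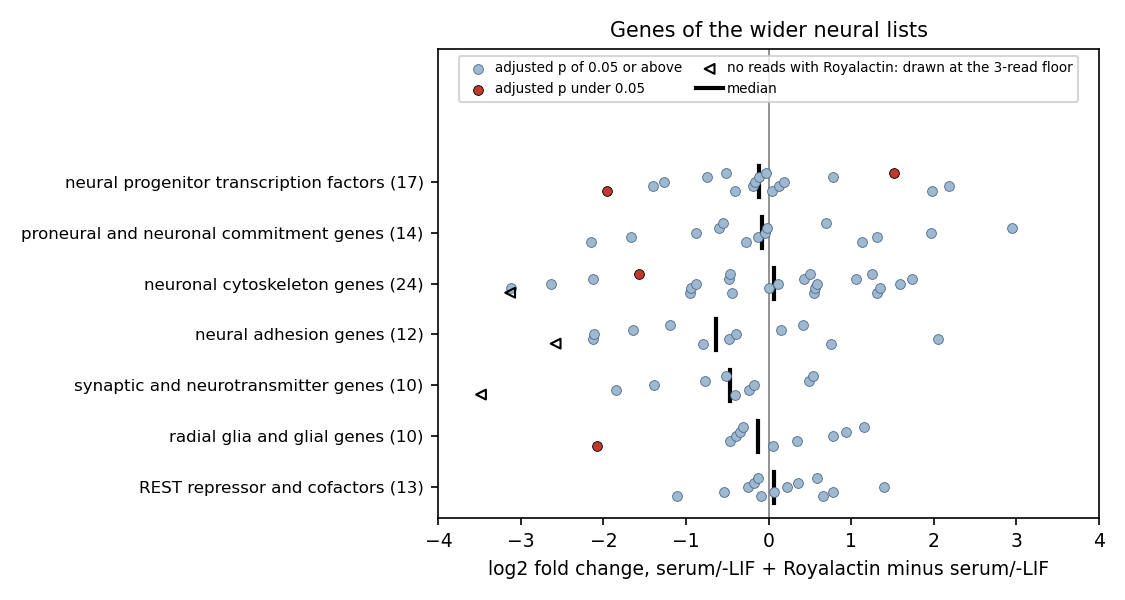
Each point is a tested gene of a wider neural list (number tested in parentheses), placed by its log2 fold change, serum/-LIF + Royalactin minus serum/-LIF, on the horizontal axis, with list medians as black bars. Open triangles are Stmn4, Cntn1 and Syt1, drawn at the value that 3 reads per Royalactin library would give. The 4 red points, with an adjusted p under 0.05, are Sox2 on the right and Nes, Nefl and Prom1 on the left.

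Markers of other cell types that serum cultures could hold moved beside these lists in part. Of 10 fibroblast markers, 3 passed the filter, Postn, Pdgfrb and S100a4 had no read, and the summed level ran from 94.2 to 164 in serum/-LIF and from 69.5 to 97.6 with Royalactin. Among the 3 tested, Dcn, the proteoglycan decorin, had 37.4 and 31.1 in serum/-LIF and 0 in both Royalactin libraries, while Thy1 and Pdgfra overlapped between the groups, with log2 fold changes of -0.02 and 2.38. Under the filter and not tested, Col1a1 (12.0 and 11.4 against 0 and 4.13) and Col3a1 (21.4 and 6.21 against 0 and 3.44) were also lower with Royalactin. Lum was read at 11.4 in serum/-LIF replicate 2 alone. Col1a2 was read at 1.04 in that library and at 10.1 in serum/-LIF + Royalactin replicate 1. Of 10 surface ectoderm markers, 7 were tested, with sums of 11192 and 11438 in serum/-LIF and 7503 and 7416 with Royalactin. At an adjusted p under 0.05 (limma), 0 rose and 2 fell (Krt8 and Krt18), against 0.331% and 0.162% of all tested genes. edgeR called 1 of the 7 lower, and 79.6% of Krt8 tiles matched elsewhere. Past the unadjusted limits, 2 were higher (Tfap2c and Grhl3) and 2 lower, against 3.52% and 3.61% of all tested genes. The 10 neural crest markers (4 tested, 0 called by limma, 1 past the unadjusted limits) summed to 487 and 430 in serum/-LIF and 358 and 308 with Royalactin. Endoderm markers (6 of 10 tested, 0 called, 0 past the unadjusted limits) summed to between 1337 and 2491 in serum/-LIF and between 1300.3 and 1733 with Royalactin, and mesoderm markers (4 of 10 tested, 0 called, 0 past the unadjusted limits) to between 124 and 198 and between 116 and 181. Blood and endothelial markers (4 of 10 tested, 0 called, 2 past the unadjusted limits) summed to 412 and 276 in serum/-LIF and 873 and 891 with Royalactin. Those 2, Pecam1 and Tek, were higher (log2 fold changes of 1.80 and 1.44), against 3.52% of all tested genes higher past these limits. Tal1 and Cd34 did not pass, at 0.66 and -1.88. Whether such cells or the mESCs themselves gave these sums was not tested, so the sums do not count cells. The part of such cells in the values of the neural genes was not tested either.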

How the data were processed

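The 4 RNA-seq libraries were used, 2 per group, and samples were assigned from the labels, which match the column names of the table. The 30 ATAC-seq samples were not analysed here. Ribosomal RNA had been depleted. The authors aligned the reads to mm9 with Tophat, obtained gene counts from HTSeq-count and scaled the libraries by DESeq. The deposited values are normalized counts per gene, a signal proportional to reads, and the strand setting and annotation of the counting are not given in the sources used here. In every library, 100% of values were whole multiples of 1 step (0.688 to 1.34) to within 0.01 of a read, and values divided by the step are given as reads. For serum/-LIF + Royalactin replicate 1 the step of 1.01 is too near 1 for an automatic check of whole reads.

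The test was limma 3.58.1 (R 4.3.3) with a variance trend, applied to log2(normalized count + 1), two-sided, with Benjamini-Hochberg adjustment over the 12993 genes whose mean was 10 or more. Fold changes are on that scale, which understates those of low genes. The unadjusted limits (p of 0.05, 2-fold) follow the study's methods. No block was used. edgeR 4.0.16 (quasi-likelihood) and DESeq2 1.42.0 on the recovered reads were alternatives chosen after seeing the data. The other alternatives were pseudocounts of 0.1 and 5, other filters and scalings, a replicate block, a correction for GC content and length (lowess, span 0.3), limma without trend, and each library left out.

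The members, lists and tests were chosen with earlier results of these data known. All members were named. From each wider list, genes with an adjusted p under 0.05 and those with the largest rise and fall were eligible, as was any tested gene of a small family and, for the member with the smallest limma p, the 3 genes nearest in pattern. The markers of stem cells, fibroblasts, surface ectoderm, and blood and endothelium were named after their values were seen. The same holds for Rest, Elp4, Gm5607 and Nefm. Positions and exon lengths come from the GENCODE annotation of mm9 (93.9% of symbols matched), and exon tiles were mapped with minimap2 2.31-r1302. Promoter windows come from RefSeq (GRCm38.p6), with windows for 8 of the 9 members. The steps were tested on simulated data. All columns of values were mapped.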

Additional observations from a re-analysis of the deposited data

How the results depend on the processing

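Of 134 values of the 8 tested members under 17 alternatives, 130 kept their direction and 4 reversed, all with 1 library left out (Sox1 from -0.14 to 1.49, Fabp7 from -1.31 to 0.39, Map2 from -0.42 to 0.82), and 0 had an adjusted p under 0.05 (lowest 0.0823). Other genes reversed with a library left out included Lhx3 (-4.92 to 0.62), Slc17a7 (-0.64 to 1.72), Sox4 (-0.43 to 0.35, and 0.0133 with equal library totals), Sox12 (-0.86 to 0.33) and Elp4 (-0.15 to 0.38). Not every named gene was followed in this way, and Tubb5, whose groups overlapped, was not. The number of all genes at an adjusted p under 0.05, 64, was 32 with a pseudocount of 0.1, 34 without the filter, 99 with a mean of at least 50 (fewer genes tested), 248 with the GC and length correction and 249 with DESeq2. It was 0 without the variance trend (1135 at an unadjusted p under 0.05) and 0 with any library left out (428 to 2496 at an unadjusted p under 0.05, the most without serum/-LIF replicate 1). It was 391 with the replicate block and 798 with the block and the GC and length correction, but the labels give same-numbered libraries nothing in common beyond the number, and their deviations correlated at 0.0851, while in both groups replicate 1 had the higher Rn45s share. Members gained no call under the block, whereas Gbx2 (adjusted p = 0.0230), Map1a (0.0405), Tenm4 (0.0015), Rcor2 (0.00244), Fabp5 (0.00279) and Nefm (0.00037) did. The 927 genes past the unadjusted limits ranged from 427 to 1925 with a library left out, the most without serum/-LIF replicate 1. The cause was not tested.

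With a library left out, list medians ran from -0.32 to 0.41 (progenitor genes), -0.36 to 0.31 (proneural), -0.0125 to 0.11 (cytoskeleton), -0.87 to -0.38 (adhesion), -0.15 to -0.0235 (glial) and 0.0263 to 0.49 (REST). The proneural median was 0.50 without the filter, and with a mean of at least 50 the cytoskeleton, adhesion and glial medians were 0.12, 0.015 and -0.35, with no synaptic gene left to give a value. Dcx and Fabp7 were not tested at that filter. Depth limits Neurog2, Dcx and Fabp7, each with 43 reads or fewer in every library.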
